A study of Mus musculus with 6 samples.

Results

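The heat shock chaperones examined here are 37 named genes: 2 heat shock factors, 5 genes with small heat shock protein names, 7 of the HSP70 family, 3 of the HSP110 family, 6 HSP40 proteins, 3 cochaperones, 2 cytosolic HSP90 proteins, 5 mitochondrial chaperones and 4 subunits of the cytosolic chaperonin CCT. They were chosen by name, with earlier results of these data known, and all 37 were found among the 27179 Entrez identifiers of the count tables. Each was compared between knockout and wildtype oocytes, and Hspb1 was set against the rest. Chaperones bind unfolded protein and help it fold, hold it in solution or pass it on for degradation. HSP70 proteins work in cycles with HSP40 proteins, which deliver the substrate, and with nucleotide exchange factors, which release it, while HSP90 takes over late folding steps and CCT encloses actin and tubulin. Heat shock factors switch many of these genes on when unfolded protein accumulates, and in the mouse the maternal supply of Hsf1 is needed for the first cleavages of the embryo.

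RNA came from germinal vesicle oocytes of mice, the fully grown stage held in meiotic prophase. In the 3 knockout libraries, loxP-flanked exon 5 of Prdm10, a zinc finger gene of the PRDM family, had been removed by Cre under the Zp3 promoter, which works in growing oocytes and not in the rest of the animal. The 3 control libraries are labelled wildtype, and whether those mice carried the floxed allele or Cre is not given in the sources used here, nor are age and strain. Each library was made from about 10 pooled oocytes, and no source used here ties a pool to its own mouse. The p-values below therefore rest on pool-to-pool spread, which may be technical.

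Total counts ranged between 22492228 and 38831227 per library. Prdm10 had 2.80, 3.82 and 3.05 CPM (counts scaled to a common library size) in knockout replicates 1 to 3, against 10.4, 23.1 and 23.0 CPM in wildtype replicates 1 to 3 (log2 fold change -2.54, SE 0.33, adjusted p = 0.00436, edgeR). The count covers the whole gene, with exons outside the deleted one. The 12 oocyte markers listed summed to between 26920 and 28340 CPM in knockout libraries and between 25090 and 28300 CPM in wildtype libraries, though single markers differed: Mos was called lower (0.652-fold, adjusted p = 0.0274, edgeR). Oosp1 and Ooep (each 0.676-fold) lay below wildtype and Nlrp5 (1.56-fold) above it without overlap, and none of these 3 passed. Wildtype replicate 1 stood apart from the others: its Spearman correlation across genes with wildtype replicates 2 and 3 was 0.976 and 0.975, while those correlated at 0.996 with each other. Wildtype replicates 2 and 3 were closer to the knockout libraries (0.978 to 0.981) than to wildtype replicate 1. The latter correlated with the knockout libraries at 0.957 to 0.963. Results below are therefore also given without wildtype replicate 1.

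Of the 37 genes, 33 had enough counts to test. Hspb1 rose in knockout oocytes and was the only member called (adjusted p under 0.05 with edgeR's quasi-likelihood test), which makes 1 higher, 0 lower and 32 not called. That is 3.03% of the members tested, where 11.2% of all 14957 genes tested were called, 5.87% higher and 5.34% lower. The members as a set were thus called no more often than genes at large. With the same 6 libraries, DESeq2 called 5 members (Hspb1, Hspa2, Hsph1, Dnaja1 and Hsp90ab1), and limma-voom with library quality weights called 11, adding Hspa1b, Hspa8, Hspa4, Dnajb4, Hspe1 and Cct5. Among all 14957 genes, DESeq2 called 2671 and limma-voom 5943. In those fits, too, the members were called no more often than genes at large. An unadjusted p under 0.05 in edgeR was reached by 6 of the 33, 4 higher and 2 lower. Of all 14957 genes tested, 4314 reached it, 2126 higher and 2188 lower, which is a larger share than among the members. The median log2 fold change, knockout over wildtype, was 0.16 over the 33 members and 0.00 over all genes tested. Without Hspb1 the median was 0.16 as well, and 31 of the other 32 lay within 0.6 of 0. Knockout and wildtype libraries did not overlap for 14 of the 33 (42.4%), 12 with knockout above and 2 with knockout below. Among all 14957 genes, 40.2% showed no overlap, 3134 with knockout above and 2877 with knockout below. The share with knockout above was thus larger among the members than among all genes, and the share below smaller.

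**Figure D1:**
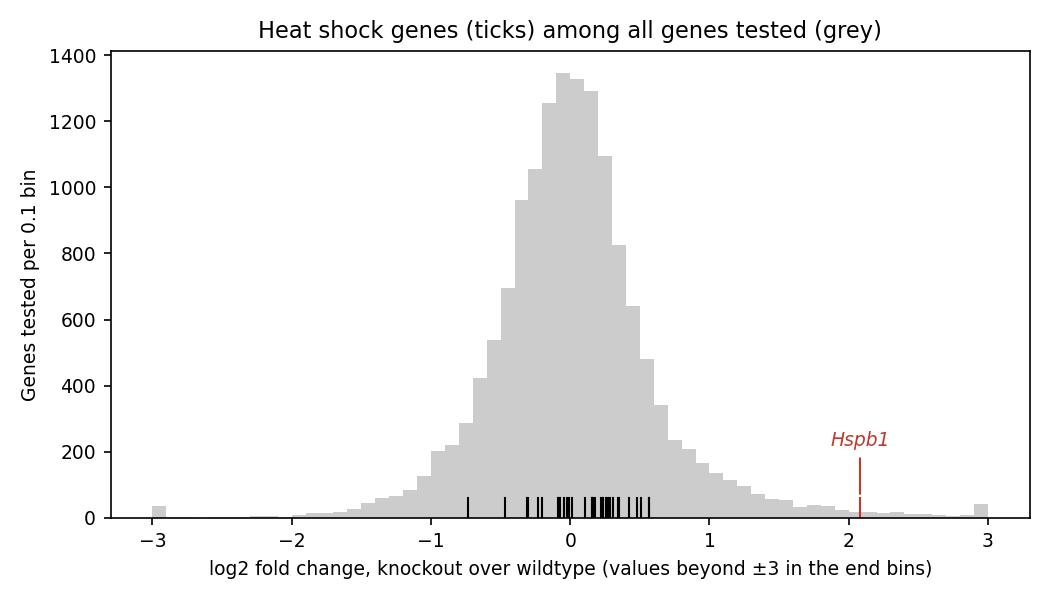
Number of genes tested (vertical axis) by log2 fold change, knockout over wildtype (horizontal axis, bins of 0.1), with a tick for each of the 33 tested heat shock genes. Hspb1 lies at 2.08, and the other 32 lie between -0.73 and 0.57 among the bulk of genes.

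Hspb1 encodes HSP27 (HSP25 in the mouse), a small heat shock protein that forms large oligomers, holds unfolded proteins and associates with actin filaments. It is Entrez 15507, at GRCm38 chr5:135887919-135889563. It had 495, 567 and 416 counts in knockout replicates 1 to 3, against 228, 43 and 49 counts in wildtype replicates 1 to 3. Scaled for depth, that was 14.6, 15.1 and 11.02 CPM in the knockout libraries, against 5.48, 1.66 and 2.24 CPM in the wildtype libraries. All knockout libraries lay above all wildtype libraries, and wildtype replicate 1 was the highest of the wildtype group. The means were 13.6 ± 2.24 CPM in knockout against 3.12 ± 2.06 CPM in wildtype oocytes (SD, n = 3 each), a 4.23-fold difference (log2 fold change 2.08, SE 0.41, adjusted p = 0.0196, edgeR).

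Without wildtype replicate 1 the log2 fold change of Hspb1 was 2.81 (SE 0.20, adjusted p = 3.13e-06, edgeR), with a mean of 1.95 CPM in wildtype replicates 2 and 3. The direction was the same with any 1 of the 6 libraries left out, but the call was not. The adjusted p was 0.0945, 0.0978 and 0.0649 without knockout replicates 1, 2 and 3, 0.0526 without wildtype replicate 3 and 0.0403 without wildtype replicate 2 (edgeR, log2 fold changes between 1.77 and 2.21). Of the 50-base stretches of its transcript, 51.6% also occur in the transcripts of 2 other genes, led by the pseudogene Hsp25-ps1, which has no row in the count tables. How reads with several matches were counted is not known, so the level of Hspb1 may miss reads or hold reads of those genes.

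The 32 other tested members gave a yardstick within each library. The log2 level of Hspb1 minus the median of the others was -3.28, -3.18 and -3.57 in knockout replicates 1 to 3, against -4.23, -5.99 and -5.62 in wildtype replicates 1 to 3. The gap was smaller in each knockout library than in any wildtype library. Its mean was -3.34 ± 0.21 in knockout and -5.28 ± 0.93 in wildtype oocytes (SD, n = 3 each), a difference of 1.94. The median of the other members itself was 7.20, 7.15 and 7.10 log2 CPM in knockout replicates 1 to 3, against 6.81, 7.10 and 7.08 log2 CPM in wildtype replicates 1 to 3. These values are a description, and no test was made of Hspb1 against the other members.

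**Figure D2:**
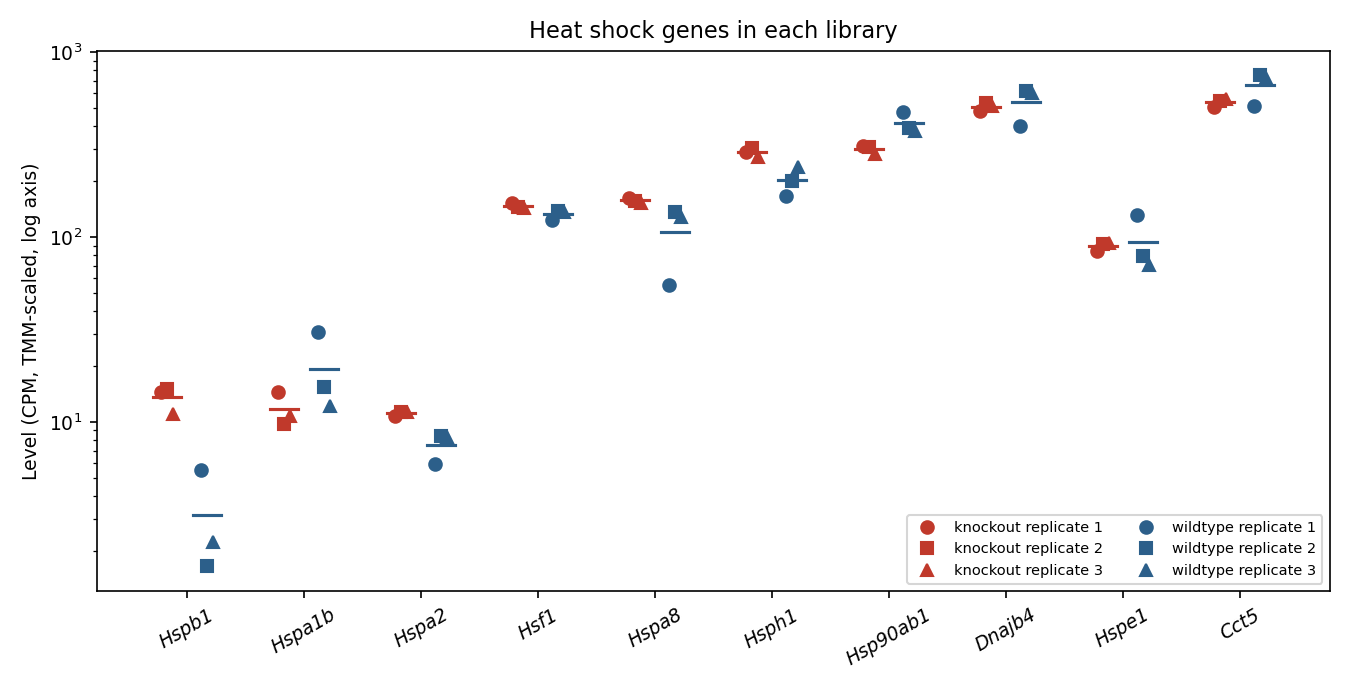
Level of 10 heat shock genes (CPM on a log axis) in each of the 3 knockout libraries (red) and 3 wildtype libraries (blue), with a bar at each group's mean. For Hspb1 the knockout libraries lie between 11.02 and 15.1 CPM, above wildtype libraries at 1.66 to 5.48 CPM, and wildtype replicate 1 (blue circle) is the lowest library for Hspa8 and the highest for Hspe1.

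Heat shock factors bind repeats of the unit GAA in alternating orientation, known as heat shock elements. To set Hspb1 beside members that were not called, the stretches before 4 RefSeq starts (GRCm38.p6) are shown together, and all 4 held a match. Each is 150 bases long, ends at the base before the transcription start and is written 5′ to 3′ on the strand of the gene. Capitals mark pairs of facing or back-to-back units, GAANNTTC or TTCNNGAA, both of which read the same on either strand and can overlap by sharing a unit. The stretches lie at chr5:135887769-135887918 (plus strand) for Hspb1, chr17:34959239-34959388 (minus strand) for Hspa1b, chr1:55087998-55088147 (plus strand) for Hspe1, and chr5:29735748-29735897 (plus strand) for Dnajb6.
Hspb1: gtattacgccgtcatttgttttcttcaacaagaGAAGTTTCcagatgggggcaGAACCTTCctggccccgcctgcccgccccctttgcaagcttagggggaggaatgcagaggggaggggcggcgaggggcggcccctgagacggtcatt
Hspa1b: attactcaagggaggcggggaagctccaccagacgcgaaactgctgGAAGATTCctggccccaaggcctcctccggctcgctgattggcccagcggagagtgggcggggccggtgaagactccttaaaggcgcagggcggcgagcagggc
Hspe1: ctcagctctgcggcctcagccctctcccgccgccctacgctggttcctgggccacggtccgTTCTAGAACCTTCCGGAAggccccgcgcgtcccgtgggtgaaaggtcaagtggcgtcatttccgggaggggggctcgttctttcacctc
Dnajb6: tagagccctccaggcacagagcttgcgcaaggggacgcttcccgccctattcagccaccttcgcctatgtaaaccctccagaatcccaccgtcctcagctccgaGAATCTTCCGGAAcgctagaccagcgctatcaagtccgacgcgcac

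Hspb1 held 2 facing pairs, the first starting 117 bases before the start site and the second ending 90 bases before it. Hspa1b held 1 facing pair in this stretch, between 104 and 97 bases before its start. Hspe1 and Dnajb6 held runs of 3 or more adjoining units. Stretches with only a back-to-back pair, found before starts of Dnajb4, Hsph1 and Cct5, are not shown, nor are those with no pair. In the RefSeq windows of 300 bases around each start, a pair of either kind occurred in 15.1% of all 32851 windows and in 16 of 41 windows of the 30 members that had any, which belonged to 14 genes. At least 3 adjoining units (GAANNTTCNNGAA or TTCNNGAANNTTC) occurred in 0.603% of all windows and in 6 of 41 member windows. These belonged to 4 genes, Dnajb6, Hspd1, Hspe1 and Hsph1, and the run of Hspd1 is that of Hspe1 read on the opposite strand. The log2 fold changes of these 4 genes were -0.01, 0.31, -0.07 and 0.51, and edgeR called none of them with all libraries. Hsph1 was called by DESeq2 and limma-voom and Hspe1 by limma-voom, and edgeR called both of these without wildtype replicate 1. These are matches of letters and say nothing about binding.

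Neither heat shock factor was called. Hsf1, the main stress-responsive factor, had 154, 145 and 144 CPM in knockout replicates 1 to 3, against 124, 138 and 136 CPM in wildtype replicates 1 to 3. The knockout libraries lay above the wildtype libraries without overlap, by a small margin (log2 fold change 0.15, SE 0.11, adjusted p = 0.382, edgeR). Hsf2, a developmentally regulated factor that can pair with Hsf1, was scarce, with a mean of 4.47 ± 0.0665 CPM in knockout against 3.67 ± 0.407 CPM in wildtype oocytes (log2 fold change 0.29, adjusted p = 0.2999, edgeR).

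Of the 5 genes with small heat shock protein names, 3 were tested and only Hspb1 passed. Hspb11 encodes IFT25, a protein of intraflagellar transport that carries a small heat shock protein name, and was the most abundant of them per length. It had 21.9, 25.6 and 24.4 CPM in knockout replicates 1 to 3, against 35.0, 24.5 and 24.8 CPM in wildtype replicates 1 to 3, where wildtype replicate 1 alone stood higher. Hspb6, a small heat shock protein of muscle, averaged 4.997 ± 0.189 CPM in knockout against 5.24 ± 1.55 CPM in wildtype oocytes. Hspb8, which works with Bag3 to send aggregates to autophagy, had 1, 3 and 3 counts in knockout libraries and 3, 0 and 3 counts in wildtype libraries. Cryab, alpha B-crystallin of lens and muscle, had 0 counts in each knockout library and 4, 0 and 0 counts in wildtype libraries. A count of 0 allows up to 3 counts, between 0.0795 and 0.0884 CPM in the knockout libraries, so neither gene was measurable at this depth.

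The stress-inducible HSP70 genes Hspa1a and Hspa1b are among the first genes that the mouse embryo transcribes. Neither passed with edgeR or DESeq2, and limma-voom called Hspa1b lower (log2 fold change -0.40, adjusted p = 0.0385). Hspa1b had 14.6, 9.78 and 10.8 CPM in knockout replicates 1 to 3, against 30.5, 15.4 and 12.3 CPM in wildtype replicates 1 to 3. The groups overlapped, and wildtype replicate 1 had the highest value (log2 fold change -0.73, SE 0.34, adjusted p = 0.195, edgeR). Without that library its log2 fold change was -0.25 (adjusted p = 0.283, edgeR). Hspa1a averaged 1.77 ± 0.415 CPM in knockout against 1.77 ± 0.826 CPM in wildtype oocytes. The 2 genes are near copies: 66.3% of the 50-base stretches of Hspa1a and 62.3% of those of Hspa1b occur in other genes, so their reads may be split or lost. Summed, they had 16.8, 11.2 and 12.4 CPM in knockout libraries, against 33.2, 16.4 and 13.9 CPM in wildtype libraries. Hspa1l, a testis-enriched relative beside them on chromosome 17, had at most 10 counts in any library.

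Among the constitutive HSP70 proteins, Hspa8, which folds new proteins and strips clathrin from vesicles, was the most abundant per length. It had 163, 157 and 153 CPM in knockout replicates 1 to 3, against 55.1, 136 and 129 CPM in wildtype replicates 1 to 3. Knockout libraries lay above wildtype libraries, and wildtype replicate 1 had the lowest value (log2 fold change 0.57, SE 0.30, adjusted p = 0.259, edgeR; 0.25 without that library, adjusted p = 0.00835). The transcript of Hspa8 shares 74.8% of its 50-base stretches with other genes, 13 in number. Hspa2, best known for meiotic spermatocytes, had 10.7, 11.3 and 11.3 CPM in knockout libraries, against 5.93, 8.36 and 8.32 CPM in wildtype libraries (log2 fold change 0.57, SE 0.17, adjusted p = 0.0772, edgeR; 0.41 without wildtype replicate 1, adjusted p = 0.0179). Hspa13, an HSP70 relative of the endoplasmic reticulum, and Hspa14, which binds the ribosome, had log2 fold changes of 0.23 and 0.11.

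The HSP110 proteins release nucleotide from HSP70 and help it take apart aggregates. Hsph1, the most abundant of them per length, had 288, 302 and 272 CPM in knockout replicates 1 to 3, against 167, 202 and 239 CPM in wildtype replicates 1 to 3. No wildtype library reached the knockout range (log2 fold change 0.51, SE 0.15, adjusted p = 0.0697, edgeR). Hspa4 had 333, 317 and 301 CPM in knockout libraries, against 166, 243 and 274 CPM in wildtype libraries, again without overlap (log2 fold change 0.48, SE 0.19, adjusted p = 0.138, edgeR). Without wildtype replicate 1 both passed, at log2 fold changes of 0.38 (adjusted p = 0.00291) and 0.29 (adjusted p = 0.00649). Hspa4l, a germ-cell-enriched member of the family, averaged 91.1 ± 3.33 CPM in knockout against 81.3 ± 25.5 CPM in wildtype oocytes.

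Of the 6 HSP40 proteins, which bring substrates to HSP70, none passed with edgeR on all libraries, while DESeq2 called Dnaja1 and limma-voom called Dnaja1 and Dnajb4, all lower. Dnajb4, a cytosolic type B member, had 478, 529 and 512 CPM in knockout replicates 1 to 3, against 399, 613 and 603 CPM in wildtype replicates 1 to 3, with overlapping groups. Its log2 fold change was -0.09 with all libraries and -0.26 (adjusted p = 0.0047, edgeR) without wildtype replicate 1. Dnaja1, a farnesylated type A member, had 125, 128 and 134 CPM in knockout libraries, against 154, 163 and 163 CPM in wildtype libraries. All knockout libraries lay below all wildtype libraries, wildtype replicate 1 included (log2 fold change -0.31, SE 0.10, adjusted p = 0.0953, edgeR; -0.34 and adjusted p = 0.0011 without that replicate). Dnajb1, the HSP40 that heat induces, averaged 277 ± 14.8 CPM in knockout against 274 ± 11.1 CPM in wildtype oocytes. Dnaja2, Dnajb6 and Dnajc7 had log2 fold changes of 0.16, -0.01 and 0.22.

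Stip1 (HOP), which joins HSP70 to HSP90, had 340, 354 and 339 CPM in knockout replicates 1 to 3, against 245, 337 and 332 CPM in wildtype replicates 1 to 3. The knockout libraries lay just above wildtype replicates 2 and 3 (log2 fold change 0.18, adjusted p = 0.447, edgeR). Bag1, a nucleotide exchange factor that links HSP70 to the proteasome, averaged 26.5 ± 1.29 CPM in knockout against 27.3 ± 4.64 CPM in wildtype oocytes. Bag3, its stress-inducible relative, had 4, 1 and 14 counts in knockout libraries and 38, 4 and 2 counts in wildtype libraries, too few to test.

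Both cytosolic HSP90 proteins had negative log2 fold changes, and neither passed with edgeR on all libraries. Hsp90ab1, the constitutive form, had 310, 306 and 280 CPM in knockout replicates 1 to 3, against 476, 389 and 376.5 CPM in wildtype replicates 1 to 3. The groups did not overlap, and wildtype replicate 1 was the highest (log2 fold change -0.47, SE 0.13, adjusted p = 0.0582, edgeR). It passed without that library, at -0.36 (adjusted p = 0.000994, edgeR), and with all libraries it was called lower by DESeq2 (adjusted p = 0.0178) and limma-voom. Hsp90aa1, the inducible form, averaged 380 ± 32.8 CPM in knockout against 438 ± 100.4 CPM in wildtype oocytes, and its log2 fold change was -0.00 without wildtype replicate 1.

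Mitochondrial chaperones import and fold proteins of the matrix. Hspe1 (HSP10), the lid of the mitochondrial chaperonin, was the most abundant per length by the mean of both genotypes, at 280 ± 9.17 TPM in knockout and 288 ± 105 TPM in wildtype oocytes. Hspa9 was higher than Hspe1 in knockout oocytes (299 ± 0.882 TPM) and lower in wildtype oocytes (230 ± 64.4 TPM), where wildtype replicate 1 was the highest library for Hspe1 and the lowest for Hspa9. Hspe1 had 84.3, 91.2 and 92.5 CPM in knockout replicates 1 to 3, against 132, 78.9 and 70.4 CPM in wildtype replicates 1 to 3. Its direction rested on wildtype replicate 1: the log2 fold change was -0.07 (adjusted p = 0.863, edgeR) with it and 0.26 (adjusted p = 0.0205) without it. Hspd1 (HSP60), the barrel of that chaperonin, whose gene lies head to head with Hspe1 on chromosome 1, averaged 58.0 ± 1.20 CPM in knockout against 46.8 ± 10.7 CPM in wildtype oocytes. Hspa9 (mortalin), the HSP70 of the import motor, averaged 375.7 ± 5.89 CPM in knockout against 295 ± 84.1 CPM in wildtype oocytes. Without wildtype replicate 1 the log2 fold change of Hspd1 was 0.13, against 0.31 with it, and that of Hspa9 was 0.13, against 0.35 with it. Neither passed with all libraries (adjusted p = 0.291 and 0.308, edgeR), nor did Trap1, the mitochondrial HSP90 (log2 fold change 0.26), or Dnaja3, the mitochondrial HSP40 (0.27). The last 2 turned to -0.02 and -0.03 without wildtype replicate 1.

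In the CCT ring, Cct5 was the most abundant member of all 37 per length. It had 504, 545 and 557 CPM in knockout replicates 1 to 3, against 513, 750 and 723 CPM in wildtype replicates 1 to 3. Wildtype replicate 1 fell within the knockout range, so the groups overlapped (log2 fold change -0.31, SE 0.16, adjusted p = 0.254, edgeR). Without that library Cct5 was lower at log2 -0.46 (adjusted p = 0.000148, edgeR). Tcp1, Cct2 and Cct8, which encode other subunits of the same ring, had log2 fold changes of 0.35, 0.23 and 0.42 with all libraries. Without wildtype replicate 1 those values were 0.06, 0.03 and 0.11, and edgeR called none of the 3 in either fit. Tcp1 overlaps Acat3 and Mrpl18, Cct8 overlaps Usp16, Dnajc7 overlaps Nkiras2 and Cnp, and Hspd1 overlaps Hspe1, so reads there may be split or lost. In all, 9 of the 37 members share over 40% of their 50-base stretches with other genes, and 16 share none.

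**Figure D3:**
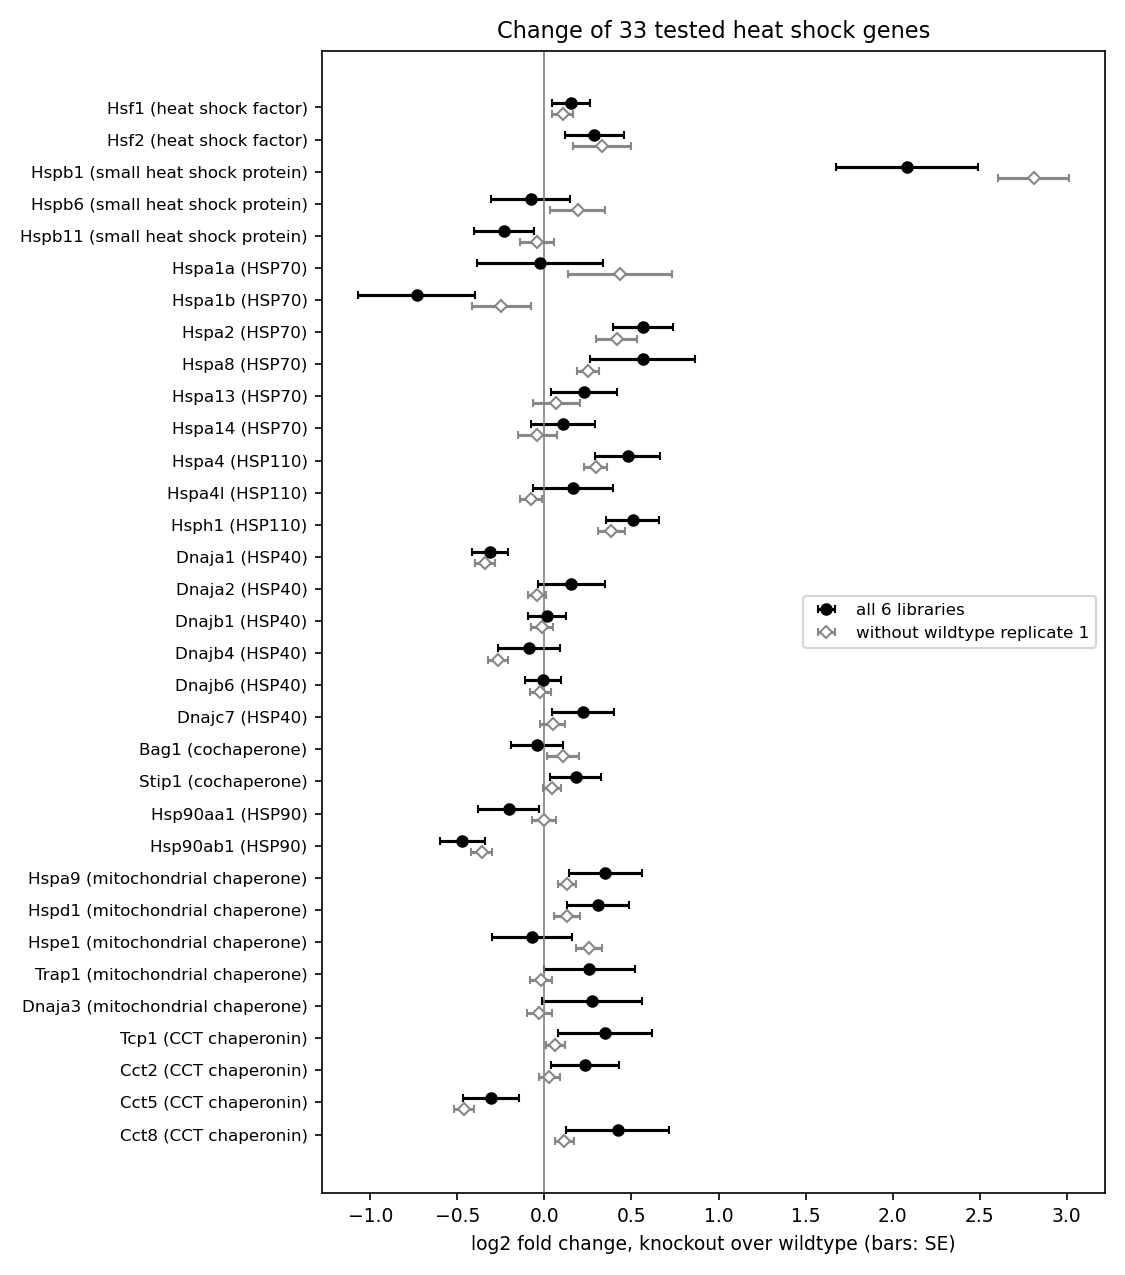
Log2 fold change, knockout over wildtype, of the 33 tested heat shock genes with its standard error, from all 6 libraries (black) and without wildtype replicate 1 (open grey diamonds). Hspb1 is at 2.08 and 2.81. The other members shown lie between -0.73 and 0.57 with all libraries and between -0.46 and 0.43 without wildtype replicate 1.

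Wildtype replicate 1 differed from the other wildtype libraries in many of the chaperones. On the log2 scale (CPM + 0.5), the median of the 33 tested members in that library lay -0.46 from the mean of wildtype replicates 2 and 3, where the median of all genes tested was 0.00. More than 2-fold gaps occurred for 7 of the 33 (21.2%), 5 lower and 2 higher, and for 8.04% of all genes tested. Hspa8 (-1.26), Cct8 (-1.23), Dnaja3 (-1.17), Tcp1 (-1.10) and Trap1 (-1.05) were the 5 lower members, while Hspb1 (1.29) and Hspa1b (1.11) were the 2 higher. Between wildtype replicates 2 and 3 no tested member differed by more than 0.45, the value of Hspa1a. The tested members summed to 6119, 6301 and 6112 CPM in knockout replicates 1 to 3, against 4806, 6389 and 6274 CPM in wildtype replicates 1 to 3.

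Without wildtype replicate 1, 10 of 34 members that could then be tested passed, 6 higher and 4 lower. That is 29.4% of members, where 34.4% of 15104 genes passed, 16.7% higher and 17.7% lower, so the share of members was again not above that of all genes. The 6 higher were Hspb1, Hspa2, Hspa8, Hspa4, Hsph1 and Hspe1, and the 4 lower were Dnaja1, Dnajb4, Hsp90ab1 and Cct5. Apart from Hspb1 their log2 fold changes lay between -0.46 and 0.41. The median over the members was 0.05.

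Per length of transcript (TPM), ranked by the mean of both genotypes, Cct5 came first, at 700.3 ± 24.98 TPM in knockout and 848 ± 161 TPM in wildtype oocytes (SD, n = 3 each). Dnajb4 came next, with 498 ± 17.3 TPM in knockout and 519 ± 113 TPM in wildtype oocytes. Cct8, Dnaja2, Stip1, Hsp90ab1, Hsp90aa1 and Hspe1 followed, between 280 and 446 TPM in knockout and between 288 and 391 TPM in wildtype oocytes. In wildtype oocytes, neighbours among these 6 differed by less than the larger wildtype SD of the pair. In knockout oocytes, neighbours from Cct8 (446 ± 7.88 TPM) through Dnaja2 (406 ± 6.25 TPM) and Stip1 (396 ± 8.43 TPM) to Hsp90ab1 (287 ± 19.1 TPM) lay further apart than the larger knockout SD. Hsp90ab1, Hsp90aa1 and Hspe1 did not. Hspb1 was ranked 27 of 37, at 35.4 ± 6.03 TPM in knockout and 8.01 ± 5.33 TPM in wildtype oocytes. In knockout oocytes it lay between Bag1 (47.8 ± 3.07 TPM) and Hspa4l (23.3 ± 1.28 TPM), and in wildtype oocytes between Hspb6 (9.14 ± 2.77 TPM) and Hspa2 (7.09 ± 1.27 TPM). The bottom of the order was held by Bag3, Hspa1l, Hspb8 and Cryab, each under 0.4 TPM in both genotypes.

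**Figure D4:**
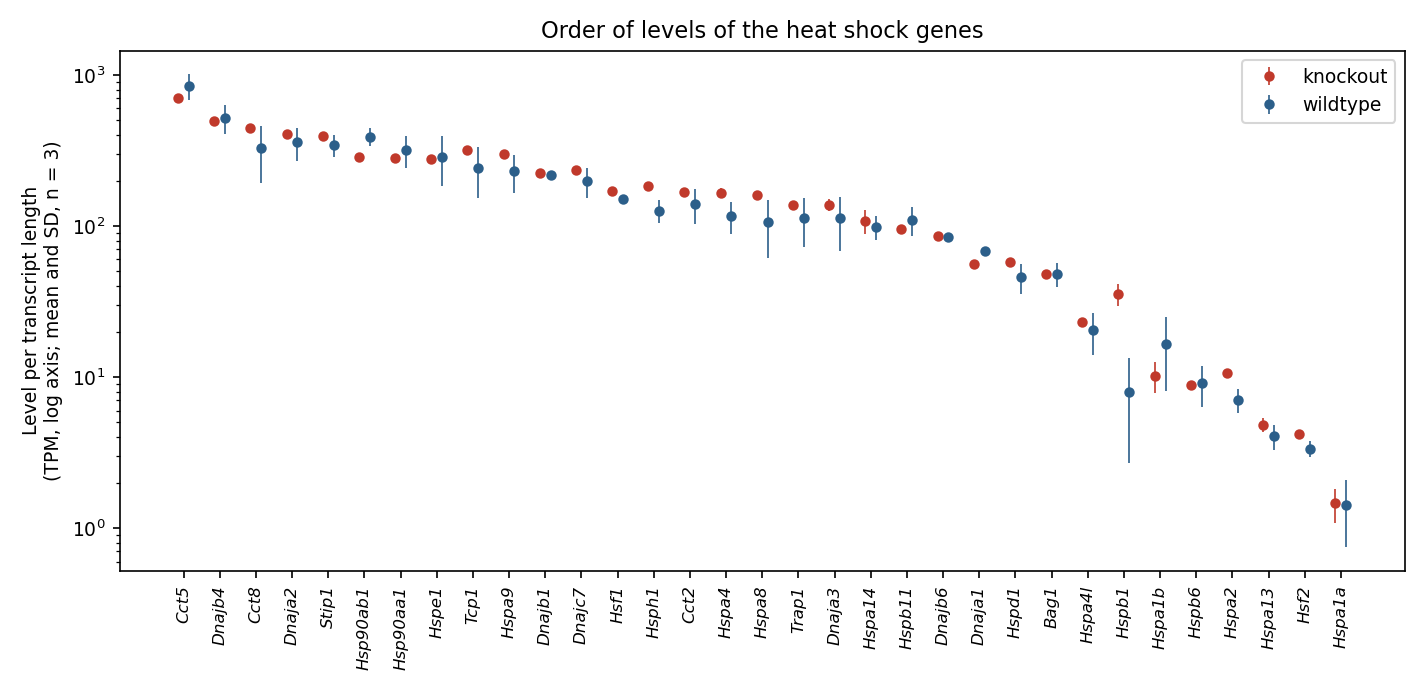
Level per transcript length (TPM on a log axis, mean and SD, n = 3) of the 33 tested heat shock genes in knockout (red) and wildtype (blue) oocytes, in order of level. Hspb1 has the widest gap between genotypes, at 35.4 TPM in knockout against 8.01 TPM in wildtype oocytes.

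Cochaperones and chaperones outside the 37 were examined as a list of 104 genes. Of 88 tested, 2 rose, 3 fell and 83 did not pass (5.68% called, against 11.2% of all genes tested, with a median log2 fold change of -0.01). Cct6a, the zeta subunit of CCT, rose 2.16-fold (17.4 ± 3.91 CPM in knockout, 8.11 ± 2.87 CPM in wildtype, adjusted p = 0.0447, edgeR). Sil1, which exchanges nucleotide on the HSP70 of the endoplasmic reticulum, rose 1.60-fold, at 142 ± 1.54 CPM in knockout against 89.0 ± 5.85 CPM in wildtype oocytes (adjusted p = 0.0104, edgeR). Hspa12a, a distant HSP70 relative, fell to 24.0 ± 2.13 CPM in knockout, against 35.9 ± 2.81 CPM in wildtype oocytes (adjusted p = 0.02995, edgeR). Dnajb12, an HSP40 of the endoplasmic reticulum membrane, fell to 15.4 ± 0.820 CPM in knockout, against 24.2 ± 1.996 CPM in wildtype oocytes (adjusted p = 0.0199, edgeR). Sugt1, an HSP90 partner, fell to 344 ± 21.7 CPM in knockout, against 460.3 ± 16.4 CPM in wildtype oocytes (adjusted p = 0.04898, edgeR). None of the 5 passed when any 1 knockout library was left out, and without wildtype replicate 1 the list had 16 higher and 15 lower (35.2%, against 34.4% of all genes in that fit).

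A list of 32 genes known to be induced by heat, 19 of them members, had 2 of 29 tested genes higher, 0 lower and 27 not passing (6.90% called, against 11.2% of all genes tested), with a median log2 fold change of 0.23. Besides Hspb1 the other was Hmox1, heme oxygenase, also counted among heat shock proteins. It had 5.54, 5.10 and 4.34 CPM in knockout replicates 1 to 3, against 0.624, 0.809 and 0.686 CPM in wildtype replicates 1 to 3. The wildtype libraries, replicate 1 included, lay close together below the knockout libraries (log2 fold change 2.83, SE 0.22, adjusted p = 0.000549, edgeR). Leaving out each library in turn ended neither its call nor its direction. Next by p was Ubb, a ubiquitin gene, at 137 ± 2.1 CPM in knockout against 105 ± 5.18 CPM in wildtype oocytes (adjusted p = 0.0561, edgeR). Without wildtype replicate 1, 10 were higher and 4 lower (48.3%, against 34.4% of all genes in that fit).

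Since somatic cells of the ovary also express heat shock genes, their markers were summed. The 15 granulosa and cumulus markers summed to between 81.5 and 95.6 CPM in knockout and between 88.2 and 97.2 CPM in wildtype libraries, and Foxl2, which defines these cells, was under 1 CPM in every library. Most of that sum was Cyp19a1, Inha and Nr5a2. Ptgs2, which cumulus cells raise at ovulation, was called higher, at 2.86 ± 0.594 CPM in knockout against 1.07 ± 0.477 CPM in wildtype oocytes (adjusted p = 0.0446, edgeR), and Has2 lay above wildtype without overlap but did not pass (1.57-fold, adjusted p = 0.106). Kitl went the other way, below wildtype without overlap, and did not pass (0.802-fold, adjusted p = 0.166, edgeR). Cyp19a1, the largest part of the sum, was at 0.735-fold with overlapping groups (adjusted p = 0.205, edgeR). The 11 theca and stroma markers summed to between 66.2 and 76.8 CPM in knockout and between 82.8 and 99.9 CPM in wildtype libraries, most of it Myh11. Myh11 lay below wildtype without overlap (0.767-fold, adjusted p = 0.144, edgeR). Pdgfra lay above wildtype without overlap (1.94-fold, adjusted p = 0.081, edgeR), and neither passed. Knockout replicate 3 and wildtype replicate 1 stood apart in Cyp11a1, a steroidogenic enzyme, with 11.05 and 11.4 CPM, against 0.961 to 2.24 CPM in the other 4 libraries. Acta2, Lhcgr and Cyp17a1 were highest in the same 2 libraries, where Hspb1 had its lowest knockout value (knockout replicate 3) and its highest wildtype value (wildtype replicate 1). The granulosa markers Inha, Inhba and Inhbb were also highest in those 2 libraries, and the other granulosa and cumulus markers were not. Inhba had 1.91 CPM in knockout replicate 3 and 1.97 CPM in wildtype replicate 1, against 0.347 to 0.737 CPM in the other 4 libraries. Foxl2 had 0.913 CPM in wildtype replicate 1 and at most 0.321 CPM elsewhere. The 10 blood, immune and endothelial markers found, of 11 listed, summed to between 117 and 121 CPM in knockout and between 36.7 and 82.3 CPM in wildtype libraries. This sum was carried by Pecam1 and Cd68, and Cd68 averaged 10.6 ± 0.407 CPM in knockout against 2.10 ± 1.33 CPM in wildtype oocytes (adjusted p = 0.0109, edgeR). Pecam1 lay above wildtype without overlap but did not pass (1.73-fold, adjusted p = 0.143, edgeR). Ptprc, Adgre1 and C1qa, which define immune cells, were under 0.4 CPM in every library. Of the other endothelial markers, Cdh5 had 0 counts in all, while Kdr had between 2.19 and 4.89 CPM. Hba-a1 also had 0 counts. The part of these markers in the rise of Hspb1 was not tested, and since the values are relative levels in pooled oocytes, fewer cells that express a gene and less RNA per cell cannot be told apart.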

How the data were processed

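RNA-seq of 3 knockout and 3 wildtype oocyte pools was analysed. Per the labels' protocols, PicoPure columns gave the RNA, a SMARTer Ultra Low Input kit the cDNA and NexteraXT the libraries. STAR 2.7.11a, featureCounts 2.0.3 and the builds GRCm38.p6 and mm10 are named per the submitters' processing notes. For their annotation, strandedness and treatment of multiply mapped reads, no setting was found in the labels. The authors deposited raw counts, whole numbers per Entrez gene, in 1 table per library. The members, gene lists and tests were chosen with earlier results of these data known.

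Of 27179 identifiers, 25275 were named from RefSeq (GRCm38.p6) and 18 from GENCODE M21, and 1886 stayed unnamed. The filterByExpr function of edgeR 4.0.16 (minimum count of 10) left 14957 genes, which were scaled by TMM. The quasi-likelihood F test was run over all of them in R 4.3.3 with Benjamini-Hochberg adjustment, and genes under 0.05 were called. Standard errors are the absolute log2 fold change over the square root of F. CPM are counts per TMM-scaled library, and TPM used the longest GENCODE transcript. Shared sequence is the percent of a transcript's 50-base stretches found in another gene's GENCODE transcripts. Between 17973 and 19307 genes had a count per library, and 1 count was worth 0.0240 to 0.0457 CPM. Floors are 3 counts and cover counting error only. No libraries agreed within sampling noise. Alternatives were DESeq2 1.42.0 (size factors, Wald test), library totals, no filter, 5 CPM in 3 libraries, limma 3.58.1 voom with quality weights, a replicate block and leaving out each library. The fits were tested on simulated data. Every library's value is given for Hspb1, for called members and for the most abundant member per length in each role. Further members shown library by library (Hspa1b, Hspa2, Hspa4, Dnaja1) were picked once values were known, as were the markers named. From each other list the called genes were named or, with fewer than 3, those of smallest p up to 3.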

Additional observations from a re-analysis of the deposited data

How the results depend on the processing

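Hspb1 stayed higher and called under every alternative that kept all 6 libraries (log2 fold change 2.03 to 2.76), and with a library left out its log2 fold change was 1.77 to 2.81. Members called numbered 2 with library totals (Hsph1 added), 5 with DESeq2 and 11 with voom quality weights, and 0 to 10 with a library left out. All genes called numbered 1038 with the stricter filter, 2671 with DESeq2, 5943 with voom and 537 with the replicate block (357 to 5199 with a library left out). Other cochaperones called numbered 14 with DESeq2, 32 with voom and 0 with the block (0 to 31). Heat-induced genes called numbered 4 with library totals, 7 with DESeq2 and 15 with voom (1 to 14), immediate early genes 5 with DESeq2, 7 with voom and 1 with the block (0 to 6), and endoplasmic reticulum chaperones 7 with voom (0 to 7). The main fit tested 33 members, 88 other cochaperones, 29 heat-induced, 18 immediate early and 14 endoplasmic reticulum genes, of 14957 in all. Set against these numbers, the DESeq2 share lay above that of all genes for the heat-induced and immediate early lists only. With voom it lay above for the heat-induced and endoplasmic reticulum lists only. The cause of the differences between settings was not tested.

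Same-numbered libraries did not deviate together (correlations -0.09, -0.01 and -0.11), and differently numbered ones correlated between -0.05 and 0.10. The deviations were taken from group means of only 3 libraries. This check therefore cannot show whether the numbers pair the libraries, and the main fit did not pair them. With the replicate block Hspb1 was at 2.25 (adjusted p = 0.0345, edgeR) and Hspa1a turned to 0.061. Voom turned Hspb6 (0.16), Hspa1a (0.32), Hspa14 (-0.12), Hspa4l (-0.079), Dnaja2 (-0.030), Dnajb1 (-0.034), Bag1 (0.077), Hsp90aa1 (0.027), Hspe1 (0.26) and Dnaja3 (-0.035). The stricter filter turned Dnajb1 (-0.0035). Leaving out a library turned 12 uncalled members, whose log2 fold changes spanned -0.23 to 0.19 for Hspb6, -0.30 to 0.43 for Hspa1a, -0.042 to 0.22 for Hspa14, -0.078 to 0.30 for Hspa4l, -0.045 to 0.27 for Dnaja2, -0.022 to 0.047 for Dnajb1, -0.26 to 0.0088 for Dnajb4, -0.049 to 0.0058 for Dnajb6, -0.12 to 0.11 for Bag1, -0.24 to 0.26 for Hspe1, -0.019 to 0.42 for Trap1 and -0.029 to 0.47 for Dnaja3. Cryab, Hspb8, Hspa1l and Bag3 were too scarce at this depth for the test.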

Other observations

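Endoplasmic reticulum chaperones, which fold secreted and membrane proteins, were set beside the cytosolic ones. Of 14 tested, 0 were called with edgeR or DESeq2, where edgeR called 11.2% of all genes, and 1 had an unadjusted p under 0.05. That was Sdf2l1, a partner of the J protein Dnajb11, at 45.5 ± 1.08 CPM in knockout against 36.9 ± 1.11 CPM in wildtype oocytes (adjusted p = 0.117, edgeR). Next by p were Dnajb9, an HSP40 of the same compartment, and Manf, a secreted stress factor, with log2 fold changes of -0.31 and -0.30. Limma-voom called 7 of the 14, against 5943 of all 14957 genes. Without wildtype replicate 1 edgeR had 4 of the 14 higher and 3 lower (50%, against 34.4% of all genes in that fit).

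Of 20 immediate early genes, many of which respond to tissue dissociation, 18 were tested, 2 rose, 1 fell and 15 did not pass (16.7% called, against 11.2% of all genes tested, with a median log2 fold change of -0.15). Klf2, a Krüppel-like transcription factor, rose to 8.14 ± 0.72 CPM in knockout, against 3.62 ± 0.90 CPM in wildtype oocytes (adjusted p = 0.0163, edgeR). Zfp36, which destabilises AU-rich mRNAs, rose to 8.74 ± 0.404 CPM in knockout, against 5.65 ± 0.35 CPM in wildtype oocytes (adjusted p = 0.033, edgeR). Btg2, an antiproliferative gene, fell to 19.4 ± 2.15 CPM in knockout, against 34.9 ± 2.996 CPM in wildtype oocytes (adjusted p = 0.0107, edgeR). Without knockout replicate 2 or knockout replicate 3, 0 of them were called, and without wildtype replicate 1, 4 were higher and 2 lower (33.3%, against 34.4% of all genes in that fit), with a median of 0.22.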
